A study of Mus musculus with 40 samples.

Results

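The 6 genes followed here differed strongly between regulatory and conventional CD4+ T cells, are little studied in either, and were measured in 10 sources of the mouse. Rln3 and Tmem158 were high in regulatory T cells, and Mctp2, Hs3st3b1, St3gal6 and Dapl1 were high in conventional T cells. These 6 genes, of 55421 in the count table, were selected on that difference between the cell types, so it is described here without a test. What the choice did not use is how each gene varied between sources within one cell type, and those differences were tested.

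The cells were CD4+ T cells of perfused wild-type mice that carry a Foxp3-Thy1.1 reporter. Reporter-positive cells were sorted as regulatory T cells (Treg) and reporter-negative cells as conventional T cells (Tconv), 2000 cells a library, and messenger RNA was counted at its 3′ end with the QuantSeq kit. Blood, spleen and lymph node are called lymphoid sources here, kidney, liver, lung and pancreas solid organs, and the intraepithelial (IEL) and lamina propria (LPL) lymphocytes the gut wall. Together with Peyer's patch these 10 sources gave 3 Treg libraries and 1 Tconv library each, 30 and 10 in all. All groups shared the genotype, the perfusion and the digestion of tissue, and the labels used give no age, no treatment and no statement of which libraries come from the same animal. SD, SE and p-values therefore measure the spread between these samples.

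Foxp3 is the transcription factor that commits a CD4+ T cell to the regulatory lineage, and resting T cells of either kind circulate through lymphoid organs while activated ones settle in tissues. Relaxin-3, the product of Rln3, is a peptide hormone of the insulin superfamily known best as a neuropeptide that acts on the receptor Rxfp3. Tmem158 encodes a membrane protein first found as a gene induced by Ras signalling. Mctp2 encodes a membrane-anchored protein with C2 domains, which bind calcium. Hs3st3b1 encodes a 3-O-sulfotransferase that modifies heparan sulfate, St3gal6 encodes a sialyltransferase that caps galactose on glycans, among them selectin ligands, and Dapl1 encodes a small protein related to the death-associated protein Dap.

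All 6 genes have the same position in the files and in the reference annotation of mm10. Rln3 (ENSMUSG00000045232.4) lies on the minus strand at chr8:84042929-84045000 and Tmem158 (ENSMUSG00000054871.5), a gene of 1 exon, on the minus strand at chr9:123259053-123260764. Mctp2 (ENSMUSG00000032776.9) lies on the minus strand at chr7:72077830-72306608 and Hs3st3b1 (ENSMUSG00000070407.5) on the minus strand at chr11:63885792-63922290. St3gal6 (ENSMUSG00000022747.17) lies on the minus strand at chr16:58468125-58524243 and Dapl1 (ENSMUSG00000026989.5) on the plus strand at chr2:59484653-59505020.

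RefSeq promoters of build GRCm38.p6, from 250 bases before to 50 after the start, were available for 5 of the 6 genes, with 2 for St3gal6. They were searched on both strands for short motifs bound by the TATA-binding protein and by the RUNX, forkhead, TCF, AP-1 and ETS families of transcription factors, forkhead being the family of Foxp3. Shown are the promoters of Rln3, the gene with the widest gap on the Treg side, of Dapl1, the gene with the widest gap on the Tconv side, and of Mctp2, with every match in capitals. The first is chr8:84044930-84045229 on the minus strand, the next is chr2:59484403-59484702 on the plus strand, and the last is chr7:72306546-72306845 on the minus strand.
Rln3: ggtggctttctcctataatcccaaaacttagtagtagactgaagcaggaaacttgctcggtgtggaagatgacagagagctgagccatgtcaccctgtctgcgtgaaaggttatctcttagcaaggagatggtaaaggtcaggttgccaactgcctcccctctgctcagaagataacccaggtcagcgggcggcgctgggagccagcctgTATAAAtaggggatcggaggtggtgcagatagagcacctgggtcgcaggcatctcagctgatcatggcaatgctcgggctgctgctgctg
Dapl1: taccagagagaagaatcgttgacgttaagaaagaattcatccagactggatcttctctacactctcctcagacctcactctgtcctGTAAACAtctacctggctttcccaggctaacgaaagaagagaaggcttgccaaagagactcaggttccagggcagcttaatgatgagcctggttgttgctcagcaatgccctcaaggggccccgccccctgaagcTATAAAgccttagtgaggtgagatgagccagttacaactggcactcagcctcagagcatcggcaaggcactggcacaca
Mctp2: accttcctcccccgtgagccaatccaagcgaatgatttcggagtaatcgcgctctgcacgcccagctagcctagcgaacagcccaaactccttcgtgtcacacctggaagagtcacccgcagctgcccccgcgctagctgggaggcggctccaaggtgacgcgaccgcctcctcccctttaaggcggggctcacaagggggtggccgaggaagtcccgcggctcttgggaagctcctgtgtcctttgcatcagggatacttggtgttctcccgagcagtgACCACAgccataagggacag
The TATA box letters TATAAA began 40 bases before the start of Rln3 and 29 bases before that of Dapl1, and they occurred in 13.6% of all 32851 promoters of this length. Dapl1 also held the forkhead letters TGTTTAC on the reverse strand, 164 bases before the start, as did 3.65% of promoters. The RUNX letters TGTGGT, held by 16.8% of promoters, stood on the reverse strand 30 bases after the start of Mctp2 and on the forward strand in 1 of the 2 St3gal6 promoters. The TCF letters were CTTTGAA and occurred in 5.14% of promoters, the AP-1 letters were TGANTCA and occurred in 7.81%, and the ETS letters were CCGGAAGT and occurred in 3.89%, and none of these was in the windows of the 5 genes. The Hs3st3b1 promoter held no match at all. No motif overlaps another in these windows. A match is a description of the letters and not a bound site.

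Total counts ran from 12197980 to 28823493 per library, with 14411 to 19167 genes detected. Levels are in CPM, counts scaled to the size of the library with its TMM factor. They are not divided by length, and the levels of the 6 genes are not compared with one another. Sums over a gene list serve to compare libraries. Unless stated otherwise, a mean is given ± SD over 30 Treg or 10 Tconv libraries, and a log2 fold change ± SE. Foxp3 stood between 68.2 and 309.5 CPM in Treg and between 0.161 and 6.74 CPM in Tconv, the highest of these in lung Tconv, so every library lay on the side of its label. All 10 genes of a T cell list had counts in both cell types, with summed levels of 6580 to 10950 CPM in Treg and 6497 to 10821 CPM in Tconv. Kidney Treg replicate 1 and lung Treg replicate 1 stood apart from the other libraries of their source. Their 17 genes of a resting T cell list, Dapl1 left out, summed to 13609 and 23754 CPM, against 3531 to 4908 CPM in the other kidney and lung Treg libraries, and the kidney library also held 2312 CPM of a 9-gene kidney tubule list, against 31.9 and 48.7 CPM. Pancreas Treg replicate 6 held 118743 CPM of a 10-gene acinar cell list, against 24119 and 21178 CPM in replicates 1 and 5, and 106.6 CPM of Tmem158, against 52.7 and 49.5 CPM. By a chi-square distance per degree of freedom, lymph node Treg replicate 6 lay 230.5 and 219.3 from the others of its source. Those lay 44 apart. For Peyer's patch Treg replicate 1 these distances were 153.5, 153.2 and 27.2, and for kidney Treg replicate 1 they were 199.2, 227.1 and 33.3. Lymph node Treg replicate 6 had 154.9 CPM of Foxp3, against 68.2 and 73.4 CPM. Results that rest on these libraries are given with and without them. Only kidney and lung Treg replicate 1 were also left out together. In bulk libraries, fewer cells that express a gene and less RNA per cell cannot be told apart.

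Across the cell types, the 6 genes kept their side in every source. Rln3 was 23.3-fold higher in Treg (log2 fold change 4.54 ± 0.27, SE) and Tmem158 11-fold higher (3.46 ± 0.25). On the other side, Dapl1 was 13.5-fold lower in Treg (-3.76 ± 0.35), Hs3st3b1 9.32-fold lower (-3.22 ± 0.19), St3gal6 7.27-fold lower (-2.86 ± 0.18) and Mctp2 6.88-fold lower (-2.78 ± 0.16). Of the 14983 genes tested, 9.88% were called higher in Treg and 7.28% higher in Tconv (edgeR quasi-likelihood test with Benjamini-Hochberg adjustment, adjusted p below 0.05). In all 10 sources the Tconv library lay outside the range of the 3 Treg libraries, below it for Rln3 and Tmem158 and above it for the other 4 genes. This held for 1.16% of genes with Tconv below and 0.447% with Tconv above, and since this contrast chose the 6 genes nothing is read from it. All 30 Treg libraries were above all 10 Tconv libraries for Rln3 and Tmem158, as for 0.1% of genes, and all Tconv libraries were above all Treg libraries for Hs3st3b1, as for 0.0334%. The edge was narrow for Tmem158, where the lowest Treg library had 15.0 CPM and the highest Tconv library 13.6 CPM.

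**Figure D1:**
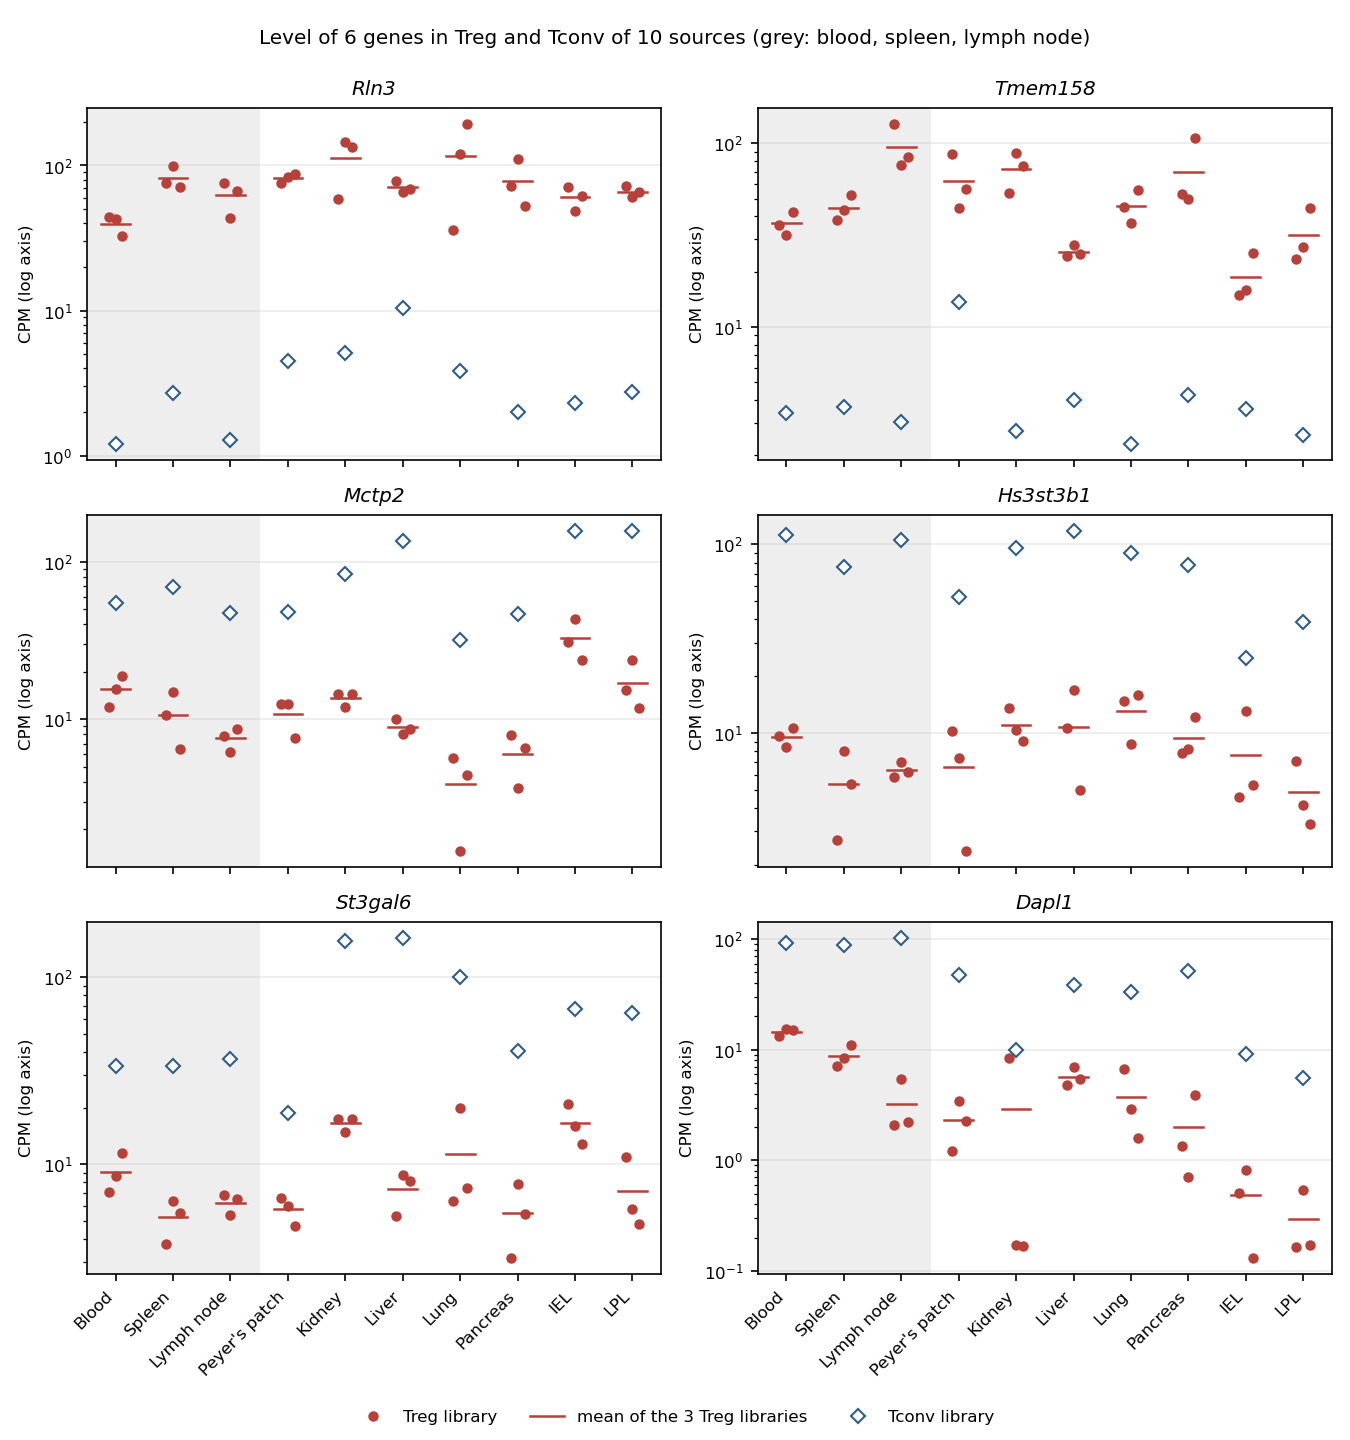
Level of each gene (CPM, log axis) in every library of the 10 sources, with Treg libraries as filled points, their mean as a line and the Tconv library as an open diamond. The diamond lies below the 3 Treg points in all 10 sources for Rln3 and Tmem158 and above them for the other 4 genes.

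Rln3 was found in Treg of every source. The 30 Treg libraries ran from 32.7 CPM in blood to 194.4 CPM in lung, with a median of 71.3 CPM. The 3 blood libraries had 44.2, 42.5 and 32.7 CPM, below all other Treg libraries but lung replicate 1 (35.7 CPM) and lymph node replicate 6 (43.5 CPM), which fell inside their range. By mean, lung (116.6 ± 79.4 CPM, SD, n = 3) and kidney (112.7 ± 46.8) led and blood (39.8 ± 6.23) came last, and in this order the ranges of 8 of the 9 neighbouring pairs overlapped, IEL and blood being the exception. The high means of lung and kidney came from libraries 5 and 6 of lung (119.9 and 194.4 CPM) and 3 and 5 of kidney (145.2 and 133.8 CPM), while the libraries numbered 1, which stood apart, had 35.7 and 59.0 CPM. In Tconv the gene had 1.21 to 10.4 CPM (23 to 136 counts), highest in liver, and the Tconv level was 2.06% of the Treg mean in lymph node and 14.7% in liver.

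Tmem158 showed another order of sources. Lymph node Treg had 128.0, 76.0 and 83.9 CPM (mean 96.0 ± 28.0, SD, n = 3), and kidney (72.5 ± 17.6), pancreas (69.6 ± 32.1) and Peyer's patch (62.6 ± 22.0) followed. The lowest means were those of LPL (31.7 ± 11.3), liver (25.7 ± 1.88) and IEL (18.8 ± 5.69), where the 3 libraries had 15.0, 16.0 and 25.3 CPM. All 9 neighbouring pairs of sources overlapped in their ranges, although lymph node and IEL at the ends did not. The Tconv libraries had 2.32 to 4.28 CPM except Peyer's patch Tconv with 13.6 CPM (312 counts), which was 21.8% of the Treg mean there, against 3.19% in lymph node.

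Mctp2 was highest in IEL in both cell types. IEL Treg had 30.7, 43.5 and 23.9 CPM, above every Treg library of every other source, of which the highest was LPL replicate 2 with 23.6 CPM. Lung Treg were lowest with 5.66, 1.46 and 4.45 CPM, the second of these from 37 counts. In Tconv, IEL and LPL had 157.2 and 157.0 CPM, liver 136.1 CPM and kidney 83.6 CPM, while lung had 31.7 CPM and the other 5 sources 46.7 to 68.7 CPM. The Treg mean was 6.56% of the Tconv level in liver and 28.5% in blood.

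Hs3st3b1 was lowest in the gut wall among Tconv. IEL and LPL Tconv had 25 and 38.9 CPM and Peyer's patch 52.4 CPM, while the other 7 sources had 75.9 to 118.2 CPM, with liver and blood (112.4 CPM) at the top. In Treg the gene stood at 2.37 to 16.8 CPM, with lung highest by mean (13.1 ± 3.76 CPM, SD, n = 3) and LPL lowest (4.86 ± 2.01). All 9 neighbouring pairs of Treg sources overlapped. The Treg mean was 6.01% of the Tconv level in lymph node and 30.5% in IEL.

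St3gal6 was high in Tconv of 3 solid organs. Liver, kidney and lung Tconv had 162.1, 156.3 and 99.9 CPM, IEL and LPL 67.8 and 64.2 CPM, and pancreas 40.5 CPM. Blood, spleen and lymph node Tconv lay close together at 33.6, 33.4 and 36.4 CPM, and Peyer's patch was lowest with 18.8 CPM. In Treg, IEL had 20.9, 16.1 and 12.9 CPM and kidney 17.5, 14.8 and 17.5 CPM, above the 3.16 to 11.5 CPM of all other Treg libraries but 1, lung replicate 5 with 20.1 CPM. The Treg mean was 4.58% of the Tconv level in liver and 30.7% in Peyer's patch.

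Dapl1 had its lowest means in the gut wall in both cell types. Blood Treg had 13.2, 15.4 and 15.1 CPM and spleen Treg 7.09, 8.36 and 11 CPM, and the ranges of these sources overlapped neither each other nor that of liver, which came next (5.72 ± 1.12 CPM, SD, n = 3). Lymph node, the other lymphoid source, had 3.24 ± 1.89 CPM in Treg, below liver and lung (3.75 ± 2.69 CPM). All 6 gut wall Treg libraries were at 0.131 to 0.814 CPM, from 3 to 24 counts each. Kidney Treg had 0.171 and 0.169 CPM in replicates 3 and 5 but 8.34 CPM in replicate 1, so its mean of 2.89 ± 4.71 describes none of them. In Tconv, lymph node, blood and spleen had 102.5, 93.1 and 89.0 CPM, pancreas, Peyer's patch, liver and lung 33.3 to 51.9 CPM, and kidney, IEL and LPL 9.85, 9.08 and 5.59 CPM. Kidney, IEL and LPL were thus the lowest 3 sources in Tconv and held the lowest Treg libraries.

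The first test asked whether a gene varied between sources within Treg at all. It called 4 of the 6 genes, where 34.5% of the 17909 genes tested were called (edgeR quasi-likelihood test over the 9 differences between sources, Benjamini-Hochberg adjusted). Tmem158 (adjusted p = 3.83e-05), Mctp2 (9.81e-05), Dapl1 (0.00402) and St3gal6 (0.005) passed, while Rln3 (0.0629) and Hs3st3b1 (0.215) did not. Rln3 was called without lung Treg replicate 1 (adjusted p = 0.00104), kidney Treg replicate 1 (0.023) or pancreas Treg replicate 6 (0.0492), and by DESeq2 with all libraries (0.0123). Without both kidney and lung Treg replicate 1 it had an adjusted p of 4.18e-05, and 5 of the 6 genes were called beside 8047 genes in all.

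The series asks about Treg that live in tissues, so Treg of the 6 tissues were compared with those of the 3 lymphoid sources. Dapl1 was 4.61-fold lower in tissue Treg (log2 fold change -2.20 ± 0.46, SE, adjusted p = 0.00116, edgeR quasi-likelihood test), with 8.87 ± 5.12 CPM over the 9 lymphoid and 2.52 ± 2.78 CPM over the 18 tissue libraries (SD). Tmem158 was 1.38-fold lower (-0.46 ± 0.15, adjusted p = 0.0307), with 59.1 ± 31.5 against 44.0 ± 25.4 CPM, and its groups overlapped over most of their range. These 2 of 6 genes stood beside 21.8% called among all genes. Rln3 (0.48 ± 0.19, adjusted p = 0.0807) and St3gal6 (0.57 ± 0.21, adjusted p = 0.0573) were not called, nor were Hs3st3b1 (0.40 ± 0.26) and Mctp2 (0.01 ± 0.20, 95% interval -0.41 to 0.43). The call of Tmem158 was lost when blood Treg replicate 5, spleen Treg replicate 4 or lymph node Treg replicate 10 was left out (adjusted p 0.0629, 0.079 and 0.0828), and against blood Treg alone its difference was 0.09. The Dapl1 difference fell to -1.01 (adjusted p = 0.338) against lymph node Treg alone, and with counts summed per source it was not called (-2.40, adjusted p = 0.0952). DESeq2 also called St3gal6 (0.57, adjusted p = 0.028). Rln3 was called without lung Treg replicate 1 (0.56, adjusted p = 0.00746) or kidney Treg replicate 1 (0.52, adjusted p = 0.0431). St3gal6 was called without lung Treg replicate 1 or 6 or pancreas Treg replicate 1 (adjusted p 0.0295, 0.0419 and 0.0447). Without both kidney and lung Treg replicate 1, edgeR called 4663 genes in all, against 3911 with every library. Of the 6 genes, 4 were among them, Dapl1 (-3.00, adjusted p = 4.1e-07), Rln3 (0.61, adjusted p = 0.000631), St3gal6 (0.62, adjusted p = 0.033) and Tmem158 (-0.42, adjusted p = 0.0481). Marker lists moved with this comparison. Of activated or memory T cell genes 15 of 18 were higher in tissue Treg (885.4 to 2205 CPM summed in lymphoid, 1971 to 7956 CPM in solid organ and 6033 to 7664 CPM in gut wall Treg). Of pancreatic acinar genes 9 of 10 were higher, with 1.54 to 18.1 CPM in lymphoid and up to 118743 CPM in solid organ Treg, and of B cell genes 7 of 10 were lower, with 32.9 to 316.1 CPM in lymphoid and 24.1 to 92.8 CPM in tissue Treg. Their part in the differences was not tested.

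**Figure D2:**
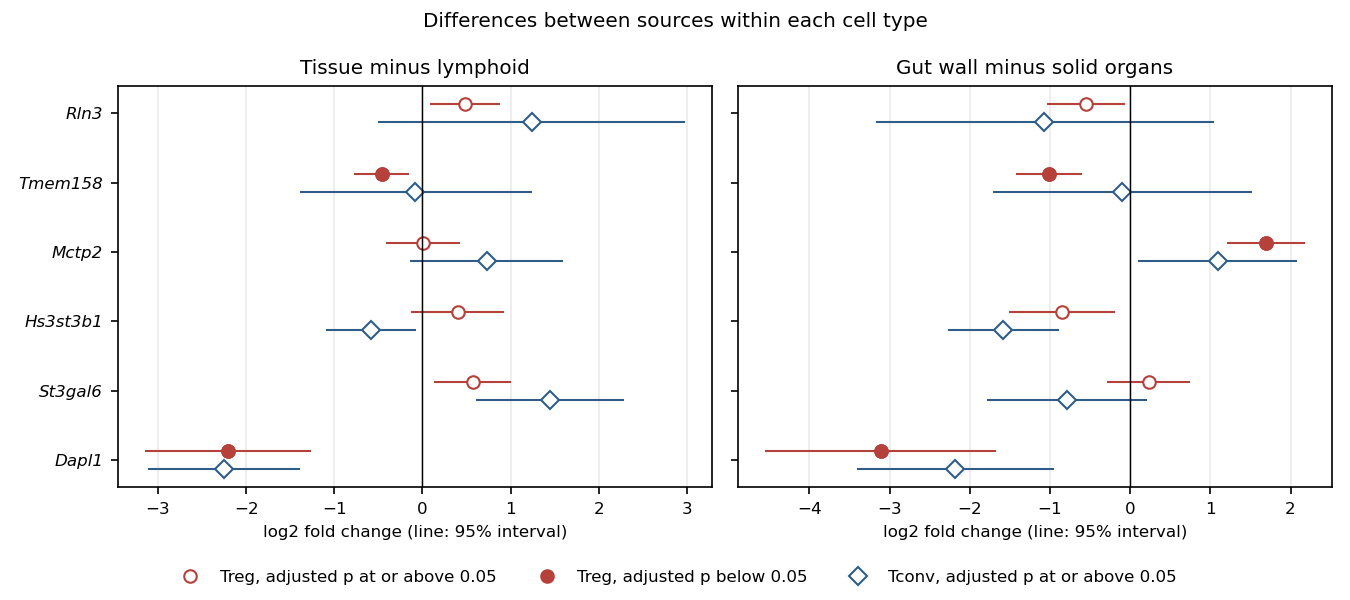
Log2 fold change of each gene with its 95% interval, for tissue minus lymphoid sources (left) and gut wall minus solid organs (right), in Treg (circles) and Tconv (diamonds), filled where the adjusted p was below 0.05. Dapl1 is lower in tissues and in the gut wall in both cell types, and filled symbols occur only in Treg.

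Among tissue Treg, the gut wall differed from the solid organs in 3 of the 6 genes, where 23.6% of genes were called. Mctp2 was 3.23-fold higher in the gut wall (1.69 ± 0.23, adjusted p = 1.12e-05, edgeR), with 24.8 ± 11.4 CPM over 6 libraries against 8.11 ± 4.10 CPM over 12 (SD). Tmem158 was 2.02-fold lower (-1.01 ± 0.20, adjusted p = 0.000542), at 25.2 ± 10.7 against 53.4 ± 25.6 CPM. Dapl1 was 8.65-fold lower (-3.11 ± 0.70, adjusted p = 0.00206), at 0.387 ± 0.275 against 3.59 ± 2.86 CPM. Hs3st3b1 (-0.85 ± 0.32, adjusted p = 0.0569) and Rln3 (-0.55 ± 0.24, adjusted p = 0.0993) missed the threshold, and St3gal6 differed by 0.23 ± 0.25. DESeq2 called Hs3st3b1 (-0.87, adjusted p = 0.0245). Hs3st3b1 was called when IEL Treg replicate 2 (-1.16, adjusted p = 0.0191), liver replicate 4, LPL replicate 1, lung replicate 5 or Peyer's patch replicate 1 or 3 was left out (adjusted p 0.0278 to 0.0476 for the last 5), and Rln3 when lung or kidney Treg replicate 1 was (adjusted p 0.00877 and 0.042). Without both of the latter, Rln3 was lower in the gut wall (-0.73, adjusted p = 0.000912) and the Dapl1 difference shrank to -1.93 (adjusted p = 0.00345). Intestinal epithelium markers moved with the gut wall, at 61.5 to 1783 CPM summed over 10 genes in gut wall Treg and 11.1 to 169.8 CPM in solid organ Treg. Natural killer cell markers summed to 609.5 to 1331 CPM over 8 genes against 13.5 to 42.3 CPM. Single natural killer genes went both ways, 2 of 6 tested being higher and 2 lower in the gut wall (median log2 fold change -0.64). Of pancreatic acinar markers 8 of 10 were lower in the gut wall (15.7 to 53.4 CPM against 2.34 to 118743 CPM), as were 4 of 11 tested myeloid markers (64.3 to 95.4 CPM over 12 genes against 144.9 to 1797 CPM). Their part in these differences was not tested.

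Each source was then set against the 3 lymphoid sources, a reference that all 7 comparisons share, and 10 of 42 pairs of gene and source passed. Kidney Treg held more St3gal6 (1.32 ± 0.32, adjusted p = 0.00578, edgeR) and Rln3 (0.95 ± 0.30, adjusted p = 0.0289), 2 of 6 genes beside 16.4% of all genes. Lung Treg held less Mctp2 (-1.49 ± 0.36, adjusted p = 0.00868) and more Rln3 (0.99 ± 0.30, adjusted p = 0.0312), 2 of 6 beside 11.5%. IEL Treg differed in 4 of 6 beside 21.2%, with less Tmem158 (-1.52 ± 0.28, adjusted p = 0.00031) and Dapl1 (-3.92 ± 1.01, adjusted p = 0.0067) and more Mctp2 (1.61 ± 0.30, adjusted p = 0.000369) and St3gal6 (1.33 ± 0.32, adjusted p = 0.00381). LPL Treg differed in 2 of 6 beside 27.1%, with less Dapl1 (-4.64 ± 1.06, adjusted p = 0.00202) and Tmem158 (-0.76 ± 0.26, adjusted p = 0.0339). None of the 6 genes was called in liver, pancreas or Peyer's patch, where 1.12%, 9.95% and 3.57% of genes were, and the nearest was Tmem158 in liver (-1.06 ± 0.27, adjusted p = 0.0505).

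Several of these calls rest on single libraries. Rln3 in kidney was lost without kidney Treg replicate 3 (0.71, adjusted p = 0.225) or 5 (0.80, adjusted p = 0.175) or blood Treg replicate 5 (0.90, adjusted p = 0.0575). Rln3 in lung fell to 0.39 (adjusted p = 0.55) without lung Treg replicate 6, and it also missed the threshold without lung replicate 5, blood replicate 4 or 5, spleen replicate 2 or 4 or lymph node replicate 6 (adjusted p 0.0524 to 0.0846). With every library kept but no filter on low counts, both Rln3 calls were lost (adjusted p 0.0546 in kidney and 0.0591 in lung, edgeR). Dapl1 in kidney, not called with all libraries (-1.38 ± 0.85, adjusted p = 0.292), stood at -5.40 (adjusted p = 0.000271) without kidney Treg replicate 1. Mctp2 in lung was lost without lung Treg replicate 5 (-1.09, adjusted p = 0.057), and Tmem158 in LPL without LPL Treg replicate 1 (-0.58, adjusted p = 0.207) or 2 (-0.69, adjusted p = 0.138), lymph node replicate 10 or spleen replicate 4 (adjusted p 0.0514 and 0.0574). Tmem158 in liver, just short of the threshold, passed when any of 10 single Treg libraries was left out (adjusted p 0.0275 to 0.0498): kidney replicate 1, lung 1 or 6, pancreas 5 or 6, IEL 3, LPL 1 or 3, lymph node 6 or Peyer's patch 1. DESeq2 called it with all libraries (adjusted p = 0.00437). St3gal6 in lung passed without lung Treg replicate 1 (1.04, adjusted p = 0.0436), and Dapl1 in pancreas without kidney Treg replicate 1 (-1.92, adjusted p = 0.0457). Without both kidney and lung Treg replicate 1, 14 of 42 pairs passed in edgeR. The share of all genes that passed per source in that fit is not given, so this rise is not read as particular to the 6 genes. Rln3 stood at 1.29 (adjusted p = 5.65e-05) in kidney and 1.40 (adjusted p = 8.4e-05) in lung. Now among the pairs were Dapl1 in kidney at -5.38 (adjusted p = 0.000144) and in pancreas at -1.89 (adjusted p = 0.034), St3gal6 in lung at 1.04 (adjusted p = 0.0459) and Tmem158 in liver at -1.07 (adjusted p = 0.0316).

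**Figure D3:**
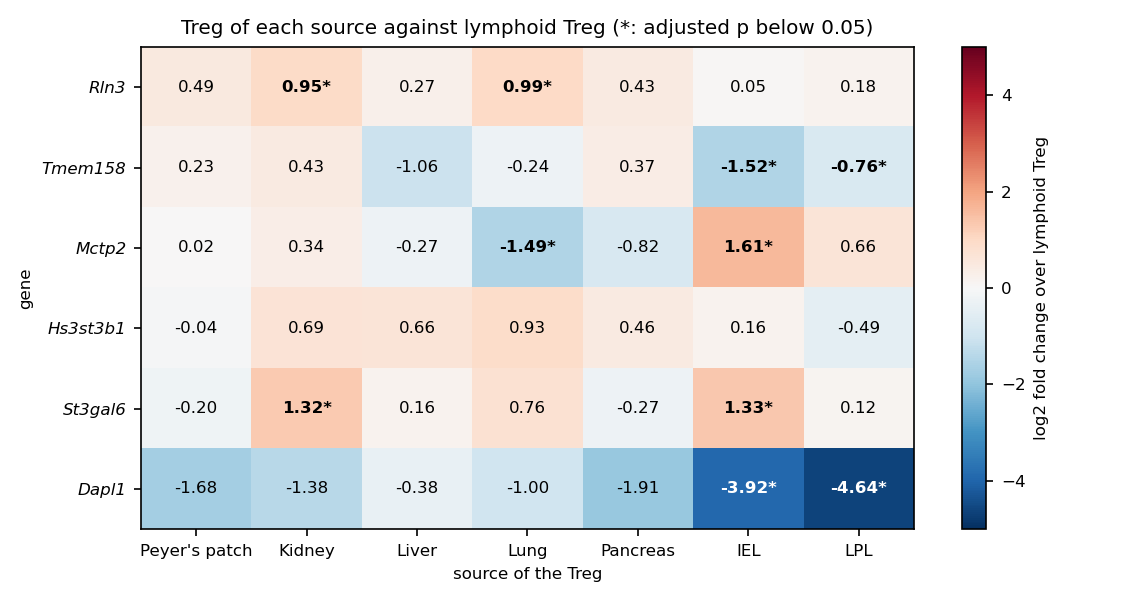
Log2 fold change of each gene in Treg of 7 sources over the mean of blood, spleen and lymph node Treg, with an asterisk where the adjusted p was below 0.05. The 10 marked cells are spread over kidney, lung, IEL and LPL, with the deepest values for Dapl1 in IEL (-3.92) and LPL (-4.64).

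In Tconv, where each source has 1 library and the source is the replicate, no gene of the 6 was called. For tissue over lymphoid sources 0.189% of 19013 genes passed (edgeR, with 2555 genes at an unadjusted p below 0.05), and for gut wall over solid organs 0.0631% (1732 genes). The Dapl1 difference was -2.25 ± 0.39 (adjusted p = 0.0522), at 94.9 ± 6.92 CPM (SD, n = 3) in lymphoid and 24.7 ± 19.2 CPM (SD, n = 6) in tissue Tconv. St3gal6 differed by 1.45 ± 0.39 (adjusted p = 0.157), at 34.5 ± 1.67 against 98.5 ± 50.7 CPM. Its level in pancreas Tconv (40.5 CPM) was close to that in lymph node Tconv (36.4 CPM). The gut wall difference of Hs3st3b1 was -1.58 ± 0.32 (adjusted p = 0.126), at 32.0 ± 9.83 (n = 2) against 95.7 ± 16.8 CPM (n = 4). DESeq2 called 2 of 6 genes in each comparison, Dapl1 (adjusted p = 5.01e-05) and St3gal6 (0.00855) for tissue over lymphoid and Hs3st3b1 (0.000377) and Dapl1 (0.00749) for gut wall over solid organs. Leaving out kidney, lung or pancreas Tconv also brought Dapl1 past the threshold for tissue over lymphoid in edgeR (adjusted p 0.0195, 0.0446 and 0.0171), and leaving out pancreas Tconv brought St3gal6 past it (0.02). Markers of CD8 and gamma delta T cells summed to 32.2 to 740.9 CPM over 6 genes in Tconv, highest in IEL, and to at most 77.2 CPM in Treg. Markers of natural killer cells reached 2160 CPM in Tconv, and the part of these cells in the Tconv levels was not tested.

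Whether the sources act on both cell types alike was asked with 2 interaction tests. The tissue effect in Treg minus that in Tconv was called for 0 of the 6 genes, beside 1.75% of genes (edgeR, with 1912 genes at an unadjusted p below 0.05). It was 0.96 ± 0.46 (adjusted p = 0.386) for Hs3st3b1, -0.78 ± 0.38 (0.401) for St3gal6 and 0.19 ± 0.89 for Dapl1, whose 95% interval of -1.65 to 2.03 leaves room for large differences. The gap between the cell types over the 10 sources was also called for 0 of 6, beside 2.03% of genes (1655 at an unadjusted p below 0.05), Tmem158 being nearest with an adjusted p of 0.085. DESeq2 called Tmem158 in this test (adjusted p = 0.00228), as did edgeR without pancreas Treg replicate 6 (0.0455) or Peyer's patch Treg replicate 1 (0.0458). The spread of both tests comes from the Treg triplicates, since each source has 1 Tconv library. Both tests are also built from the differences between the cell types on which the 6 genes were chosen. The lack of calls among them is therefore not read as a result.

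Dapl1 sits on a list of resting T cell genes, and part of the other 17 genes of that list differed in the same comparisons. In tissue over lymphoid Treg, 9 of 17 fell and 1 rose (median log2 fold change -0.69, against 0.03 over all genes tested). The survival gene Bcl2 fell by 1.53 ± 0.23 (adjusted p = 4.29e-05, edgeR) and the insulin-like growth factor binding protein Igfbp4 by 1.69 ± 0.27 (9.22e-05), while the gut homing receptor Ccr9 rose by 2.90 ± 0.28 (1.84e-07). In gut wall over solid organ Treg, 12 of 17 fell and 1 rose (median -1.82, against 0.06 over all genes). Klf2, a transcription factor of quiescent T cells, fell by 2.58 ± 0.24 (adjusted p = 3.59e-08, edgeR) and the egress receptor S1pr1 by 2.58 ± 0.29 (6.83e-07). Over Treg against Tconv, 6 of 17 were lower and none higher (median -0.52), among them Igfbp4 at -2.08 ± 0.28 (adjusted p = 1.41e-06) and the interleukin-7 receptor Il7r at -1.29 ± 0.15 (9.26e-08). In tissue over lymphoid Tconv, 1 of 17 was higher, none was lower and 16 were not called (median -1.24, against 0.02 over all genes). The summed level of these 17 genes was 3032 to 4052 CPM in the gut wall Treg libraries, in which Dapl1 was below 1 CPM. IEL Tconv had a sum of 4007 CPM and 9.08 CPM of Dapl1. Since Dapl1 was selected as higher in Tconv, nothing is read from that difference to Treg. Lung Treg replicate 1 had the highest sum, 23754 CPM, but 6.76 CPM of Dapl1. Most of the lists described here were chosen with earlier results known, and their counts are descriptions.

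**Figure D4:**
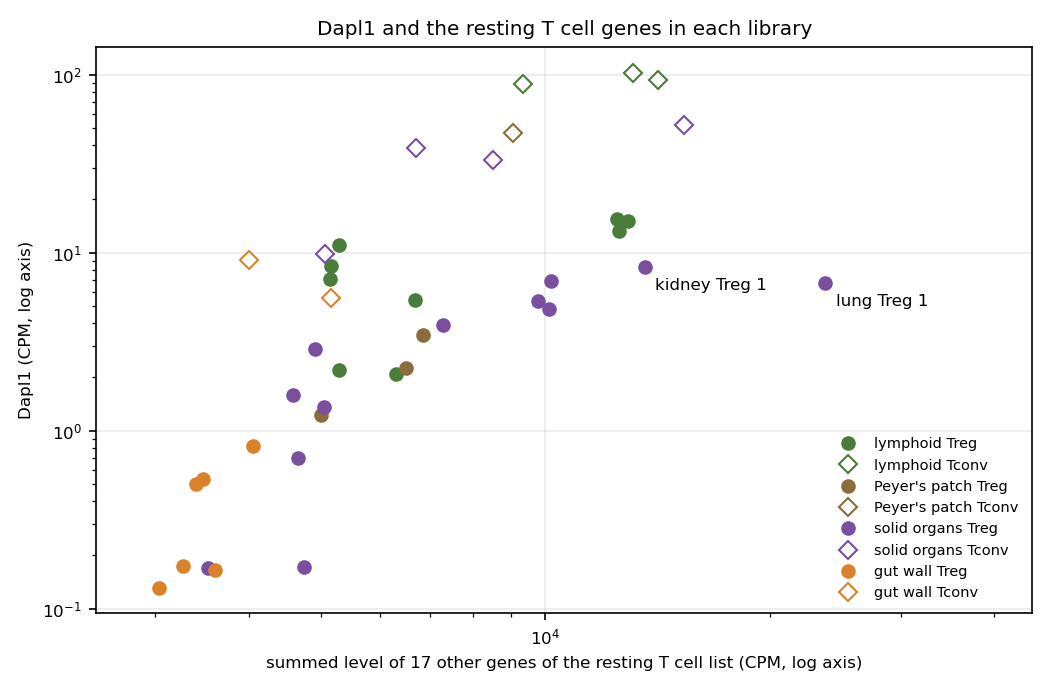
Dapl1 level against the summed level of 17 other resting T cell genes in each of the 40 libraries (CPM, both axes log), Treg filled and Tconv open, coloured by the group of sources. Gut wall Treg, kidney Treg replicates 3 and 5 and pancreas Treg replicate 5 lie below 1 CPM of Dapl1 at low sums. Kidney and lung Treg replicate 1 lie at 8.34 and 6.76 CPM. Spleen Treg, with sums of 5140 to 5284 CPM, lie higher at 7.09 to 11 CPM. IEL Tconv lies at 9.08 CPM (sum 4007 CPM), in the cell type for which Dapl1 was selected as high.

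Of the relatives of Rln3, the receptors were scarce in these cells. Rxfp3, the receptor that relaxin-3 acts on, had counts in 1 of the 30 Treg libraries (6 counts, spleen Treg replicate 3) and in no Tconv library. The other relaxin receptors Rxfp1, Rxfp2 and Rxfp4 were found in 4, 1 and 1 of the 40 libraries, with at most 27 counts. Of the 8 other relaxin peptides and receptors only Insl3 and Insl6 had enough counts to be tested, with counts in 31 and all 40 libraries and at most 4.66 and 21.2 CPM, and neither was called between Treg and Tconv (Insl6 -0.35 ± 0.22, adjusted p = 0.31, edgeR).

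Il27ra, a subunit of the interleukin-27 receptor, lies 339 bases from Rln3 on the same strand, with the 3′ end of Rln3 facing its start. Treg averaged 434.7 ± 100.1 CPM of it and Tconv 374.1 ± 50 CPM, with a log2 fold change of 0.19 ± 0.08 (adjusted p = 0.0848, edgeR). Between sources it rose in the gut wall (0.51 ± 0.10, adjusted p = 0.000805), where Rln3 stood at -0.55 ± 0.24. Over the 30 Treg libraries the Pearson correlation of log2(CPM + 1) between the 2 genes was 0.08.

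Tmem158 was first described in the setting of Ras signalling. Genes on a list of Ras and MAP kinase output and feedback showed no common direction between the cell types. Of 13 tested, 3 were higher and 2 lower in Treg (median -0.01, against 0.00 over all genes). Dusp4, a MAP kinase phosphatase, was higher in Treg, with 273.7 ± 334.5 CPM against 43.6 ± 60.3 CPM (3.07 ± 0.36, adjusted p = 7.02e-08, edgeR), and its relative Dusp6 was lower in Treg (-1.02 ± 0.24, adjusted p = 0.00233). In tissue over lymphoid Treg, where Tmem158 fell by 0.46, 7 of 14 were higher and 1 lower (median 0.54, against 0.03), led by Dusp5 (2.76 ± 0.29, adjusted p = 5.8e-07) and Dusp4 (2.92 ± 0.36, adjusted p = 3.14e-06).

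The closest relative of Mctp2 lay on the other side. Treg averaged 11 ± 7.38 CPM of Mctp1 and Tconv 2.0 ± 2.0 CPM, with a log2 fold change of 2.54 ± 0.52 (adjusted p = 0.000531, edgeR). Of 12 genes for C2 domain proteins tested, 4 were higher and 1 lower in Treg (median 0.14), among them Syt11 (1.45 ± 0.15, adjusted p = 1.32e-08) and Sytl1 (1.06 ± 0.12, adjusted p = 7.6e-08). In gut wall over solid organ Treg 1 was higher and 3 were lower (median -0.21, against 0.06), the latter being Esyt1 (-0.73 ± 0.13, adjusted p = 0.000266), Sytl1 (-0.75 ± 0.16, adjusted p = 0.00137) and Esyt2 (-0.55 ± 0.13, adjusted p = 0.00276). The one higher there, the synaptotagmin-like Sytl3, was the one lower in Treg (-2.21 ± 0.35, adjusted p = 1.55e-05), with 33.6 ± 6.66 CPM over 6 libraries of gut wall against 3.27 ± 2.93 CPM over the 12 of solid organ Treg (3.57 ± 0.50, adjusted p = 1.36e-05). Of 2 transcripts annotated inside Mctp2, the antisense Gm36696 had at most 6 counts and Gm45715 at most 22 counts in any library.

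Of 16 tested genes of heparan sulfate synthesis, other than Hs3st3b1, 2 were higher and 3 lower in Treg than in Tconv (median 0.07). Another 3-O-sulfotransferase gene, Hs3st1, was low in both, with 0.296 ± 0.528 CPM in Treg against 3.49 ± 5.69 CPM in Tconv (-4.11 ± 0.89, adjusted p = 0.00111, edgeR). The sulfatase gene Sulf2 (-2.74 ± 0.65, adjusted p = 0.00252) and the glypican gene Gpc1 (-1.18 ± 0.34, adjusted p = 0.0123) were lower in Treg as well, and the core protein gene Sdc4 was higher (2.38 ± 0.32, adjusted p = 1.04e-06). In tissue over lymphoid Treg 5 of 16 were higher and none lower (median 0.32, against 0.03), with Sdc1 (5.31 ± 0.62, adjusted p = 1.65e-06) and Sdc4 (1.61 ± 0.23, adjusted p = 1.7e-05) in front. Sdc1 is also on the plasma cell list, whose 5 genes summed to 140.4 to 368.7 CPM in lymphoid, 151.2 to 540.1 CPM in solid organ and 206.9 to 927.5 CPM in gut wall Treg, and their part in it was not tested.

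Other sialyltransferases moved both ways. Of 14 tested, 4 were higher and 3 lower in Treg than in Tconv (median 0.31). The lower ones included St8sia1 (36.8 ± 20.8 against 76.4 ± 27.9 CPM, -1.14 ± 0.24, adjusted p = 0.000636, edgeR), and St3gal2, which like St3gal6 acts on galactose, was higher (0.76 ± 0.14, adjusted p = 0.000173). In gut wall over solid organ Treg St8sia6 (-3.25 ± 0.39, adjusted p = 1.87e-06) and St6gal1 (-1.61 ± 0.16, adjusted p = 1.21e-07) fell, and 4 others of 14 rose. Of 14 other tested genes of selectin ligand synthesis, only the fucosyltransferase gene Fut7 was called between the cell types, higher in Treg (2.01 ± 0.63, adjusted p = 0.0237). Dcbld2 overlaps the 3′ end of St3gal6 by 1603 bases on the opposite strand, and since the use of strand in counting is not stated, reads there cannot be told apart. Dcbld2 had a median of 34 counts per library and differed by -0.12 ± 0.69 between the cell types. St3gal6 had 429 to 3109 counts in Tconv. In Treg the 2 genes were closer, with 79 to 584 counts of St3gal6 and 0 to 215 of Dcbld2. Pancreas Treg replicate 1 had 84 of St3gal6 and 166 of Dcbld2, and lung Treg replicate 5 had 507 and 211. The part of such reads in the St3gal6 levels of Treg was not tested.

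Dap, the relative of Dapl1, differed less. Treg averaged 54.1 ± 16.7 CPM and Tconv 70.5 ± 15.0 CPM (-0.41 ± 0.09, adjusted p = 0.00137, edgeR), and in tissue over lymphoid Treg it rose by 0.54 ± 0.11 (adjusted p = 0.000871), where Dapl1 fell.

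For each gene, the 3 genes with the most similar level were found by Pearson correlation of log2(CPM + 1), over the 30 Treg libraries for the Treg-side genes and over the 10 Tconv libraries for the others, among genes of at least 10 CPM. The libraries share sources and, in Tconv, number only 10, so these values are descriptions. Rln3 was most like M6pr, Unc93b1 and Rnh1 (all 0.77, of 8557 genes), and Tmem158 was most like Lancl1, Tmem243 (both 0.79) and Cd200 (0.77). Dapl1 was most like Lypd6b (0.99), Rcbtb1 and the T cell transcription factor Lef1 (both 0.98, of 8620 genes). Mctp2 was most like Cdc27 (0.97), Lss and Fam160a2 (both 0.94), Hs3st3b1 most like Cd47 (0.94), Dusp7 (0.93) and Osbpl5 (0.91), and St3gal6 most like Ly6g5b (0.98), Epsti1 (0.97) and Mtpn (0.94). With Spearman's rank correlation in place of Pearson's, between none and 2 of the 3 genes remained. Among the 6 genes themselves the closest pair on one side was Hs3st3b1 and Dapl1 in Tconv (0.63), and Rln3 and Tmem158 stood at 0.22 in Treg.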

How the data were processed

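The deposited table holds raw read counts per gene for 40 libraries, with no scaling by the authors seen in the values. The submitters' processing notes name Trim Galore for the reads, STAR for the alignment to mm10, featureCounts for the counting and FastQC and MultiQC for quality, besides DESeq2 and DESeq, all without versions. The annotation release and the strand setting are not given in the sources used here. Of 55421 gene IDs, 55154 could be given a symbol, and coordinates are those of mm10, counted from 1.

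The tests ran in edgeR 4.0.16 under R 4.3.3: filterByExpr, TMM, a trended dispersion, the robust quasi-likelihood F test and Benjamini-Hochberg adjustment over all genes tested, with 0.05 as the threshold. Treg over Tconv used all 40 libraries with the source as a term. Treg comparisons used 1 fit of 30 libraries with a mean per source, Tconv comparisons 1 fit of 10 libraries in 4 groups of sources, and interactions a fit of all 40 libraries in 20 cells of source by cell type. Group means are unweighted over sources, and Peyer's patch stands on neither side. The 95% intervals use the t distribution with the degrees of freedom of the fit. Intervals and counts cover only the spread and the counting error of these libraries.

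The 6 genes and the gene lists were chosen with earlier results of these data known. Named besides the 6 genes were Foxp3, up to 4 genes per family list with the smallest p in a comparison, the 3 most similar genes of each, and annotated genes within 10 kb. One gene that this rule names is not reported here. The fits were also run on simulated counts with known changes, a fixed dispersion and no other differences between sources. Since the real sources and libraries differ more, that run does not show how well the fits do on these data. The labels do not say whether replicate numbers pair libraries. Over 58 pairs of the same number from different sources the median correlation of deviations was -0.02 (-0.58 to 0.39). Over 347 pairs of different numbers it was 0.00 (-0.48 to 0.55). With so few libraries per source these values cannot settle the pairing, and the main fits did not use it. Alternatives were DESeq2 size factors, the test of DESeq2 1.42.0, no filter, a replicate block, other reference sources, tissues or sources left out, sums per source, and each library left out. In both interaction tests only single Treg libraries were left out, and these fits kept the dispersion trend of all libraries. No Tconv library was left out there. A fit without both kidney and lung Treg replicate 1 was added after seeing the data. Plots were made in Python 3.11.15 with matplotlib 3.10.9.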

Additional observations from a re-analysis of the deposited data

Results flagged for a closer look

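Among 30 groups of 4 to 10 libraries searched for a library far from the others, 3 had one. Some of these groups are nested and pool different sources, so the number to expect by chance is not known. Rln3 stood at 10.4 CPM (136 counts) in liver Tconv, above the next highest library both among the 6 tissue Tconv and among all 10 Tconv. This is the same library flagged in both groups. Tmem158 stood at 13.6 CPM (312 counts) in Peyer's patch Tconv, among the 10 Tconv, the others of which had at most 4.28 CPM. Each is a single library with no replicate.

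In 3 genes the change from lymphoid to tissue Treg differed between the gut wall and the solid organs, by the test of that difference with edgeR given in the comparison of the gut wall. The difference on the log2 scale was -1.01 for Tmem158 (adjusted p = 0.000542), 1.69 for Mctp2 (adjusted p = 1.12e-05) and -3.11 for Dapl1 (adjusted p = 0.00206).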

How the results depend on the processing

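A replicate block was not used in the main fits, since the labels do not say whether the numbers pair libraries. With the block, 3111 genes were called in Treg by source (6185 without it) and 1941 for gut wall over solid organs (4219). For tissue over lymphoid it gave 1391 (3911), with 1 of the 6 genes in place of 2, Tmem158 being lost (adjusted p = 0.471, edgeR). Of the pairs of gene and source, 6 passed in place of 10. Lost were Rln3 in kidney (0.102) and lung (0.179), St3gal6 in kidney (0.0701) and Tmem158 in LPL (0.377). For tissue over lymphoid, 2122 genes were called against blood alone and 1377 against spleen alone, and 19 with counts summed per source. Of the 6 genes, 1 was called against spleen alone or without IEL, where Tmem158 was lost (adjusted p 0.726 and 0.3), and 1 against lymph node alone, where Dapl1 was lost. With summed counts none was called, and the Tmem158 difference turned to 0.09 against blood alone, where Rln3 was called (1.04, adjusted p = 0.0334). Tmem158 was also lost without liver (0.114) or LPL (0.0846), and St3gal6 was called without liver (0.0295), pancreas (0.0185) or LPL (0.0417). Leaving out 1 library gave 1 to 4 of the 6, and leaving out both kidney and lung Treg replicate 1, chosen after seeing the data, gave 4, beside 4663 genes in all.

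In Tconv, where 36 genes were called for tissue over lymphoid, DESeq2 size factors gave 21, no filter 178 (with 1 of the 6), the DESeq2 test 1175 (with 2), 2 groups without Peyer's patch 0, and leaving out 1 library 0 to 230 (with 0 to 2). For gut wall over solid organs, with 12 called, no filter gave 89 (with 1), the DESeq2 test 400 (with 2) and leaving out 1 library 0 to 31. For the interaction of tissue and cell type, with 262 called, the DESeq2 test gave 601, the spread between sources 9, and leaving out 1 Treg library 211 to 432. For the gap by source, with 304 called, the DESeq2 test gave 1160 (with 1 of the 6), no filter 1 of the 6, and leaving out 1 Treg library 232 to 457 (with 0 to 1). The cause of these shifts was not tested. Single Tconv libraries and the few counts of Dapl1 in gut wall Treg limit what can be told apart there.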
